A study of Mus musculus with 2 samples.

Results

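The neuronal splicing regulators described here are 10 genes chosen by name, out of 55536 genes in the tables: Rbfox1, Rbfox2, Rbfox3, Nova1, Nova2, Ptbp1, Ptbp2, Srrm4, Khdrbs2 and Khdrbs3. All 10 matched an annotated gene by symbol. Total RNA was sequenced from hippocampus of female B6CASTF1/J mice aged 10 days, an F1 cross of the C57BL/6J and CAST/EiJ strains. The 2 libraries are biological replicates 1 and 2 of a single group. Each was made from a pool of 3 differently numbered mice with 300 ng of RNA, with ribosomal RNA reduced, strand kept and ERCC spike-in RNA added. There was no second condition, so the design allows levels, transcript forms and the difference between the libraries to be described, but no effect of a treatment, age or genotype.

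Splicing regulators bind short motifs in a transcript and cause nearby exons to be kept or skipped. In neurons the fall of Ptbp1 and the rise of Ptbp2, Rbfox, Nova and Srrm4 proteins sets which exons of synaptic genes are used, and several of these regulators also control exons in their own and each other's transcripts. Because the tissue was whole hippocampus, fewer cells of a type and less RNA per cell cannot be told apart in any level below.

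The libraries held 29756524 and 32148302 expected counts over genes. All 6 markers of hippocampal neurons were at 1 TPM (a level per transcript length, scaled to the total of the library) or more in both libraries, with a median of 83.8 ± 5.21 TPM (SD, n = 2), as were all 5 pan-neuronal markers, with a median of 462 ± 20.2. The summed level of 6 markers of myelinating oligodendrocytes was 194 TPM in replicate 1 and 570 in replicate 2. The labels give 2 biological replicates, and every ± below is an SD over those 2 pools.

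All 10 regulators were at 5 TPM or more in both libraries, and their levels ran from a mean of 121 TPM for Rbfox1 to 7.15 for Khdrbs2, a 17.0-fold range. Their median was 64.3 TPM in replicate 1 and 59.6 in replicate 2, against 11.9 and 11.1 for all 15465 nuclear protein-coding genes that entered the library comparison. Of all 22015 nuclear protein-coding genes, silent ones included, Rbfox1 lay above 97.02%, Khdrbs3 above 96.9% and Khdrbs2 above 57.2%. Only 13019 of the 22015 were at 1 TPM or more in both libraries. Khdrbs2, at 8.52 and 5.77 TPM, was below the median of the compared genes in both libraries. In falling order of the mean the genes were Rbfox1, Khdrbs3, Rbfox2, Rbfox3, Ptbp2, Nova2, Ptbp1, Srrm4, Nova1 and Khdrbs2. The values of neighbours overlapped for Rbfox1 and Khdrbs3, for Rbfox2 and Rbfox3, and for Srrm4 and Nova1, and the values of all other neighbours did not overlap. The read-based table turned part of this order, with Ptbp2 at 162 and 173 TPM above Rbfox2 at 157 and 134 and Rbfox3 at 147 and 136, and Nova1 at 28.0 and 29.4 above Srrm4 at 24.7 and 24.3. With 2 pools the smallest p that a sign-flip permutation test could give is 0.5, so the order is a description.

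**Figure D1:**
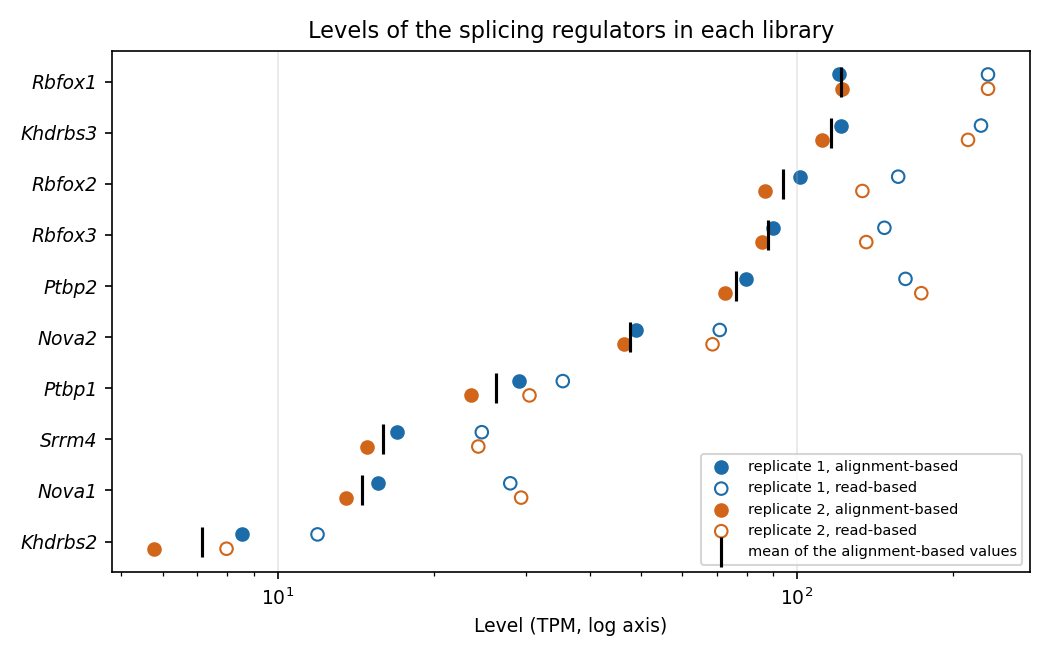
Level of each regulator in TPM (log axis), with filled points for the alignment-based gene table, open points for the read-based table, colours for the libraries and a bar for the mean of the alignment-based values. Rbfox1 and Khdrbs3 lead with means of 121 and 116 TPM, Khdrbs2 is lowest at 7.15, and the read-based values are higher for every gene while Khdrbs2 stays lowest.

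The Rbfox family, whose proteins bind the GCATG motif and tend to promote an exon when they bind downstream of it, was abundant in all 3 members. Rbfox1 (ENSMUSG00000008658.16, mm10 chromosome 16, 5885355 to 7411526) stood at 120 TPM in replicate 1 and 122 in replicate 2. Rbfox2 (ENSMUSG00000033565.18, chromosome 15, 77078990 to 77307004), which is also expressed outside the nervous system, stood at 101 and 86.9. Rbfox3 (ENSMUSG00000025576.17, chromosome 11, 118489762 to 118911597), the antigen known as NeuN that marks mature neurons, stood at 89.7 and 85.8. Rbfox1 made up 40.04% ± 1.98 of the family's summed TPM, Rbfox2 31.0% ± 2.19 and Rbfox3 28.9% ± 0.209. Rbfox1 was higher than Rbfox2 in both libraries, by 0.37 ± 0.17 on the log2 scale (TPM with a pseudocount of 0.1), and higher than Rbfox3 by 0.47 ± 0.06. Rbfox3 lay below Rbfox2 by −0.10 ± 0.11 on average, a difference smaller than its SD.

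Rbfox1 and Rbfox2 each carry a pair of cassette exons near the end of the coding region, of 40 and 43 bases, known as the brain and muscle forms because they encode different C-terminal segments. They are shown because the choice between them is the clearest splicing readout within the family. Each sequence runs 5′ to 3′ on the coding strand, with the exon in capitals and 20 bases of the neighbouring exons of the transcript in lower case, so that the shared ends are the exons joined to it.
Rbfox1 40-base exon, chr16:7363865-7363904: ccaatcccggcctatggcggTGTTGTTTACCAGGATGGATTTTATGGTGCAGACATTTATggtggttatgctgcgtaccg
Rbfox1 43-base exon, chr16:7369801-7369843: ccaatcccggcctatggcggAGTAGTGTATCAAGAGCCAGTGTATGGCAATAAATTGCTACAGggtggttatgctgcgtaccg
Rbfox2 40-base exon, chr15:77094451-77094490: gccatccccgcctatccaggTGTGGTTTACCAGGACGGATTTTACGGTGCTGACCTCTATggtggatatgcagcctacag
Rbfox2 43-base exon, chr15:77091812-77091854: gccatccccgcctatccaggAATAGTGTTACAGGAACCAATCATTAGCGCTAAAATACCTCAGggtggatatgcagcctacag
The 40-base exons of the paralogs share 34 of 40 bases (85%), and the 43-base exons share 27 of 43 (62.8%). Both lengths leave a remainder of 1 base over whole codons, so the downstream reading frame does not depend on which exon is taken.

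In the young hippocampus the 40-base exon prevailed in both genes. In Rbfox1 it was held by 96.1% of the TPM of transcripts spanning the site in replicate 1 and 97.03% in replicate 2, resting on 4138 and 4971 expected counts. The 43-base exon took the remaining 3.89% and 2.97%, since each spanning transcript holds exactly 1 of the pair. In Rbfox2 the 40-base exon was held by 80.8% and 84.9%, on 8530 and 8805 expected counts, and the 43-base exon by 7.29% and 4.96%. The rest of Rbfox2 came from a transcript with neither exon, Rbfox2-201, at 8.82 and 6.82 TPM. The 145-base version of an upstream Rbfox2 exon with alternative ends was also used in 80.8% and 84.9%. The 40-base share was therefore not measured apart from that choice. The 40-base share was higher in Rbfox1 than in Rbfox2 in both libraries. The read-based table gave the same order at lower values, 83.7% and 85.8% for Rbfox1 and 72.4% and 77.9% for Rbfox2. Weighted by expected counts instead of TPM the shares lay closer, at 98.4% ± 0.302 for Rbfox1 and 95.8% ± 0.737 for Rbfox2. The 43-base exon of Rbfox2 was then at 1.02% ± 0.303, so the size of the gap depends on the weights. The annotation holds no internal exon of 53 bases in either gene, so the known exon of that length was not analysed here.

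A further exon of 93 bases encodes part of the RNA recognition motif, and proteins without it bind RNA poorly and can act against the full-length form. It is shown for Rbfox2 and Rbfox3, where annotated transcripts skip it, with the exon in capitals.
Rbfox2 93-base exon, chr15:77105577-77105669: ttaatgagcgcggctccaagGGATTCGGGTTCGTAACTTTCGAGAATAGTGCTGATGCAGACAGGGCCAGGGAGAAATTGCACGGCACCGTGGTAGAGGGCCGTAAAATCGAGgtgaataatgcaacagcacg
Rbfox3 93-base exon, chr11:118502842-118502934: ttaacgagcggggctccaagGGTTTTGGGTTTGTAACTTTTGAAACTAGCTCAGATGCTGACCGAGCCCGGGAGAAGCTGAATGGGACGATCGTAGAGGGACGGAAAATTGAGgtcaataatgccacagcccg
The exons match at 69 of 93 bases (74.2%). Rbfox2 kept its copy in 94.2% of spanning TPM in replicate 1 and 95.9% in replicate 2. The skipped form was the transcript Rbfox2-207 at 5.42 and 3.33 TPM, on 106 and 71 expected counts. The read-based table gave inclusion of 87.0% and 90.7%, and weighting by expected counts gave 99.0% ± 0.289, so the skipped share depends on the table and weights. In the alignment-based table Rbfox2-207 was also the only transcript above 0 that holds the 43-base exon. Skipping of the 93-base exon and use of the 43-base exon were therefore not measured apart in Rbfox2. Rbfox3 kept it in 99.9% in both libraries. In Rbfox1 all 6 annotated transcripts that span its internal 93-base exon hold it, so skipping could not be measured there.

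Transcript starts differed within the family. The leading Rbfox1 form, Rbfox1-201, began at base 6349138 of chromosome 16 and held 56.4% ± 3.08 of the gene's TPM, while Rbfox1-205, which begins far upstream at base 5885355 and whose annotated coding sequence stops short of the 40-base exon, held 36.3% ± 2.94. Rbfox2-203 led Rbfox2 with 46.8% ± 0.874. Rbfox3 was shared among Rbfox3-204 at 31.8% ± 3.32, Rbfox3-205 at 31.6% ± 4.45 and Rbfox3-203 at 23.5% ± 3.35. Rbfox3-205 led in replicate 1 and Rbfox3-204 in replicate 2, while the read-based table put Rbfox3-203 first with 44.4%. The forms differ in coding sequence, 939 bases in Rbfox3-203 and Rbfox3-204 and 1080 bases in Rbfox3-205. The difference of 141 bases lies in an exon near the 3′ end with alternative ends, singled out here after its values were seen. The 40-base version was used in 54.9% and 63.7% of spanning TPM and the 181-base version in 45.1% and 36.3%.

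Nova1 and Nova2 encode KH-domain proteins that bind clusters of YCAY and regulate exons of inhibitory synapse genes, with Nova2 known as the main form in forebrain. Nova2 (ENSMUSG00000030411.16, chromosome 7, 18925888 to 18965319) stood at 48.9 TPM in replicate 1 and 46.5 in replicate 2. Nova1 (ENSMUSG00000021047.7, chromosome 12, 46694517 to 46818929) stood at 15.6 and 13.5. Nova2 was higher in both libraries, by 1.71 ± 0.09 on the log2 scale or 3.27-fold, and it held 76.7% ± 1.18 of the pair's TPM. The read-based table gave 2.43-fold in the same direction. Both annotated Nova2 transcripts have the same 4 exons and differ in their marked coding start, with 1668 and 1476 coding bases, and each table gave each of them exactly 50% of the gene. Reads of this kind therefore cannot separate the Nova2 forms. Nova1 was led by the full coding form Nova1-201 at 54.6% ± 4.33, and a transcript without a coding sequence, Nova1-205, held 13.8% ± 2.204 in the alignment-based table and 40.4% in the read-based one. A non-coding exon of 65 bases that belongs to Nova1-205 accordingly moved from 19.4% ± 1.47 to 49.6% ± 9.68 between the tables. Nova1-205 is a short form of 571 bases with 23 and 18 expected counts, and weighted by expected counts the exon was at 1.65% ± 0.136.

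Khdrbs2 and Khdrbs3, also known as SLM1 and SLM2, encode STAR-family proteins that cause skipping of an exon in neurexin genes. They lay at opposite ends of the range. Khdrbs3 (ENSMUSG00000022332.8, chromosome 15, 68928420 to 69101211) stood at 121 TPM in replicate 1 and 111 in replicate 2, and Khdrbs2 (ENSMUSG00000026058.11, chromosome 1, 32172714 to 32658568) at 8.52 and 5.77. Khdrbs3 exceeded Khdrbs2 by 4.03 ± 0.30 on the log2 scale, or 16.4-fold, and made up 94.3% ± 1.15 of the pair. The read-based ratio was 22.3-fold. Khdrbs2 rested on 400 and 306 expected counts, the fewest of the 10 genes. Its full-length form Khdrbs2-201, with 1047 coding bases, held 58.2% ± 4.78, and the shorter Khdrbs2-205, with 273 coding bases, held 22.0% ± 0.378.

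Khdrbs3 had the largest share of transcripts of the nonsense-mediated decay class among the regulators. Of these, only Ptbp1, Ptbp2, Srrm4 and Khdrbs3 have a transcript of that class annotated. This class, nonsense-mediated decay, is the annotation's label for transcripts with a stop codon well ahead of a splice junction. It held 30.3% of the Khdrbs3 TPM in replicate 1 and 33.9% in replicate 2, and 27.6% ± 1.34 in the read-based table. Among 3115 multi-transcript protein-coding genes that have such a transcript the median share was 4.80%, and Khdrbs3 lay above 90.3% of them. Nearly all of it was Khdrbs3-204, at 33.06 and 35.03 TPM, close to the 41.1 and 38.5 TPM of the coding form Khdrbs3-201. Khdrbs3-204 has the same 1038 coding bases in the same exons as Khdrbs3-201 and differs after the stop codon, where it continues into 2 further exons. The class label therefore comes from the 3′ end, and the encoded protein is the same in both annotations. Another abundant form, Khdrbs3-205, is an incomplete annotation of 501 bases that held 28.3% ± 3.11, and it was the leading form in the read-based table.

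Srrm4, also called nSR100, is a serine- and arginine-rich protein that promotes neuronal microexons. Srrm4 (ENSMUSG00000063919.11, chromosome 5, 116439275 to 116591817) stood at 17.0 TPM in replicate 1 and 14.9 in replicate 2. Its relative Srrm3, which acts on many of the same microexons, was higher, at 31.6 and 24.1 TPM. The log2 ratio of Srrm4 to Srrm3 was −0.79 ± 0.14, and below 0 in both libraries. The complete coding form Srrm4-201 held 76.0% ± 3.37, and retained-intron forms held 16.6% in replicate 1 and 7.60% in replicate 2, so these forms took a larger share in replicate 1.

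Ptbp1 and Ptbp2 encode polypyrimidine tract-binding proteins, which mostly repress exons, and Ptbp1 of non-neuronal cells gives way to Ptbp2 as neurons form. Ptbp2 (ENSMUSG00000028134.11, chromosome 3, 119718742 to 119784466) stood at 79.7 TPM in replicate 1 and 72.6 in replicate 2. Ptbp1 (ENSMUSG00000006498.16, chromosome 10, 79854427 to 79864771) stood at 29.1 and 23.6. Ptbp2 exceeded Ptbp1 in both libraries, by 1.53 ± 0.12 on the log2 scale or 2.90-fold, and held 74.4% ± 1.58 of the pair. The size of the ratio depended on the table, at 5.08-fold in the read-based one. Ptbp1 overlaps Plppr3, a brain gene on the opposite strand at 49.7 and 35.5 TPM. Whether reads were counted by strand is not stated in the labels or headers, so the Ptbp1 values are uncertain and could include reads of Plppr3. Of 12 annotated entries that overlap a regulator on the opposite strand, 9 were at 0 in both libraries.

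Each Ptbp gene has a 34-base exon whose skipping shifts the reading frame and marks the transcript for decay. This is the known switch by which Ptbp1 limits its own level and, in non-neuronal cells, that of Ptbp2. Both copies are shown because the pair carries that switch, with the exon in capitals.
Ptbp1 34-base exon, chr10:79862014-79862047: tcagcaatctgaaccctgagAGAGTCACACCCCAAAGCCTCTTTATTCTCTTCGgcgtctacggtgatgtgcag
Ptbp2 34-base exon, chr3:119724612-119724645: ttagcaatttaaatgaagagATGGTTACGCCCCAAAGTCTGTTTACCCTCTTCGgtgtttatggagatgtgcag
The exons match at 26 of 34 bases (76.5%). In both, 64.7% of bases are C or T. Ptbp1 included its exon in a mean of 97.1% ± 0.157 of spanning TPM, on 761 and 702 expected counts. Ptbp2 included its exon in 77.2% and 78.7%, on 2679 and 2710. Inclusion was thus lower in Ptbp2 than in Ptbp1 in both libraries of the alignment-based table, but the read-based values of 94.3% and 96.7% for Ptbp2 lay within 4 percentage points of its Ptbp1 values of 97.8% and 97.2%. The gap rests mostly on 1 transcript, Ptbp2-206, an incomplete decay-class annotation of 576 bases with 12.7 and 11.3 TPM in the alignment-based table and 0.850 and 0 in the read-based one. Weighted by expected counts instead of TPM, Ptbp2 inclusion was 95.1% ± 0.641.

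Ptbp1 also has an exon of 78 bases, a whole number of codons, in the linker between RNA-binding domains. Skipping of this exon is known to weaken repression by the protein, and it was the most evenly split of the preset exons of Ptbp1 and Ptbp2.
Ptbp1 78-base exon, chr10:79860117-79860194: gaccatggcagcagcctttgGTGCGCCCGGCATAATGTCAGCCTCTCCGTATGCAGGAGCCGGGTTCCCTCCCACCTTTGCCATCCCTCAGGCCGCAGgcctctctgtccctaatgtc
It was included in 55.6% of spanning TPM in replicate 1 and 42.9% in replicate 2, a mean of 49.2% ± 8.99. The leading transcript changed with it: Ptbp1-216, which holds the exon, stood at 6.36 and 4.13 TPM, and Ptbp1-202, which lacks it, at 5.69 and 5.95. The read-based table gave 75.9% and 67.9%, also lower in replicate 2. These transcripts differ as well at an upstream exon with a 320-base and a 200-base version, so the 78-base exon is not measured alone.

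In the alignment-based table the share of TPM in coding transcripts ran from 100% to 63.3%. The coding class held 100% of Nova2 and Khdrbs2, 97.3% ± 0.314 of Rbfox1, 96.5% ± 1.00 of Rbfox2 and 95.5% ± 1.45 of Rbfox3. It held 83.5% ± 1.65 of Nova1, 80.5% ± 3.07 of Srrm4, 68.8% ± 1.69 of Ptbp2, 65.5% ± 1.26 of Ptbp1 and 63.3% ± 1.45 of Khdrbs3. The median over 10375 multi-transcript protein-coding genes was 88.0%. Coding shares depend on which forms are annotated. Both annotated Nova2 transcripts are coding, so its 100% was fixed in advance. Only Ptbp1, Ptbp2, Srrm4 and Khdrbs3 have a decay-class transcript, and Rbfox1, Rbfox3, Nova2 and Khdrbs2 have no retained-intron one. Retained-intron forms made up 33.2% and 31.3% of Ptbp1, above 84.9% of the 6429 genes that have such a form and against a median of 11.4%. The read-based table gave Ptbp1 19.9% and 26.5%. In Ptbp2 the decay class held 16.1% ± 0.887 and the retained-intron class 15.1% ± 2.57. The read-based table gave Ptbp2 1.32% and 43.6% for these classes, so their split in Ptbp2 depends on the table, and there the retained-intron share of Ptbp2 exceeded that of Ptbp1 in both libraries. The read-based coding share was also lower for Rbfox3, at 82.3% ± 3.77, and for Nova1, at 63.3% and 52.7% in the 2 libraries. The leading transcript was the same in both libraries for 8 of the 10 genes, and the same in both libraries and both tables for 5: Rbfox1, Rbfox2, Nova2, Srrm4 and Khdrbs2. For Nova2 that order has no meaning, since its forms are tied.

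**Figure D2:**
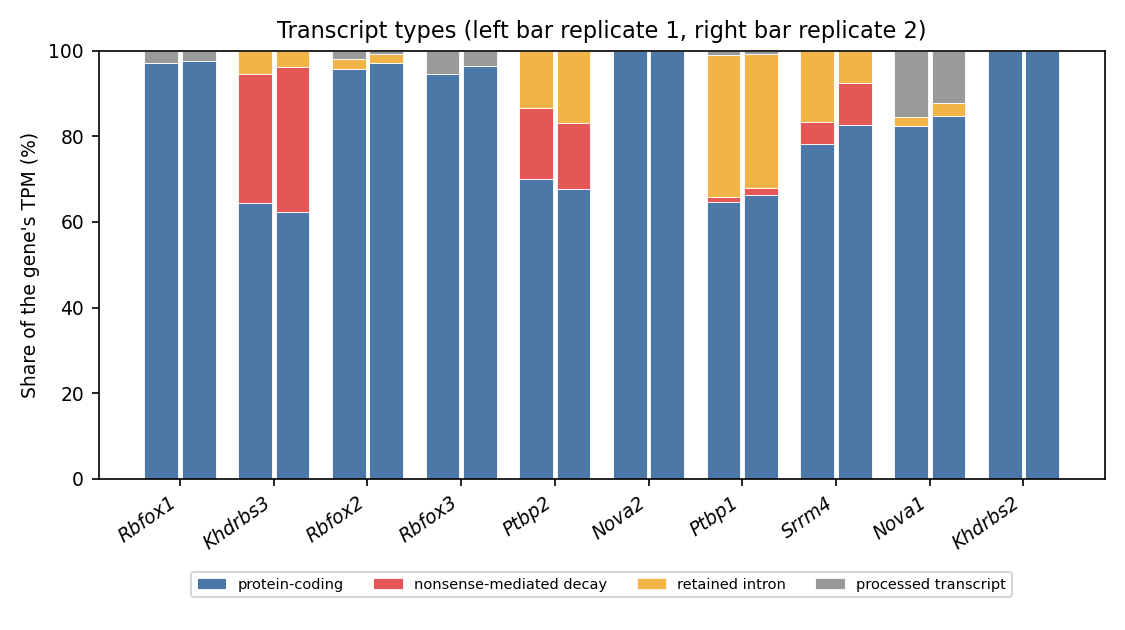
Share of each regulator's alignment-based TPM (%) held by each annotated transcript class, with the left bar of a pair for replicate 1 and the right bar for replicate 2, and genes in falling order of level. Nova2, which has only coding forms annotated, and Khdrbs2 are wholly coding. Khdrbs3 has the largest decay-class share (30.3% and 33.9%) and Ptbp1 the largest retained-intron share of this table (33.2% and 31.3%).

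Exons that these proteins are known to control in other genes gave a second readout. A microexon of Src, which Srrm4 promotes and Ptbp1 represses, marks the neuronal form of this kinase. A 90-base exon of Nrxn2 and Nrxn3, presynaptic adhesion proteins, is skipped in response to Khdrbs proteins and changes which partners the neurexin binds. The exons of Src and Nrxn3 are shown in capitals.
Src 18-base exon, chr2:157458843-157458860: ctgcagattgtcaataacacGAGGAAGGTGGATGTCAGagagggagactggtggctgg
Nrxn3 90-base exon, chr12:90199147-90199236: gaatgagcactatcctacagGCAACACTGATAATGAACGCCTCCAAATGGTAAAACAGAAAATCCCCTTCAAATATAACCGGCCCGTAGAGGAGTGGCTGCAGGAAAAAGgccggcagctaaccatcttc

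Inclusion was above 50% in all 3 exons measured in Src, Nrxn2 and Nrxn3. The Src exon was included in 74.9% of spanning TPM in replicate 1 and 81.5% in replicate 2, on 3039 and 3525 expected counts. The 90-base exon was included in 75.6% and 76.5% of Nrxn2, on 18377 and 19800 expected counts, and in 79.5% and 79.7% of Nrxn3, on 6078 and 6936. Inclusion was higher in Nrxn3 than in Nrxn2 in both libraries, and the read-based table gave the same order, with 72.7% and 73.4% for Nrxn2 and 81.3% and 78.9% for Nrxn3. Weighted by expected counts the values were 72.0% ± 0.275 for Nrxn2 and 88.3% ± 0.203 for Nrxn3. For Src the order of the libraries turned, with read-based values of 84.3% and 78.4%. The annotation has no skipped exon of 97 bases in Dlg4, a known Ptbp target, and no short skipped exon of the preset length in Rest, a known Srrm4 target, so these were not analysed here. No library had a regulator removed, so inclusion cannot be tied to the level of any of them.

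**Figure D3:**
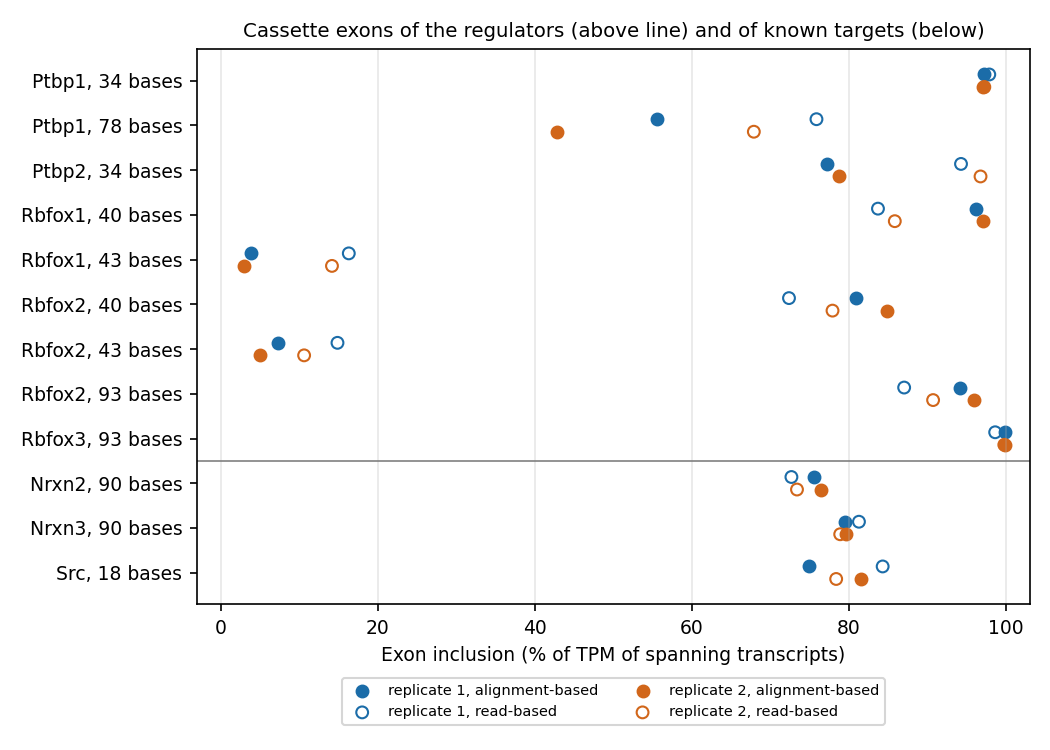
Inclusion of each cassette exon chosen by its length (% of the TPM of transcripts that span it), regulators above the line and known targets below, with filled points for the alignment-based table, open points for the read-based table and colours for the libraries. Cassette exons taken for their inclusion, such as the 65-base exon of Nova1, are not drawn. The 40-base exon of Rbfox1 is near 97% and its 43-base partner near 3% in the alignment-based table, while the 78-base exon of Ptbp1 and the 34-base exon of Ptbp2 lie over 15 percentage points apart between tables.

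Other splicing genes were read from lists, described by counts and medians. All 5 close relatives of the regulators were at 1 TPM or more in both libraries, with a median of 45.9 ± 1.90 TPM, led by Srrm2, a core protein of nuclear speckles, at 268 and 215. Srrm1, a splicing coactivator, stood at 67.1 and 58.5, Khdrbs1, the broadly expressed Sam68, at 47.2 and 44.5, and Ptbp3 was lowest at 10.7 and 10.3. Members of the large assembly of splicing regulators that Rbfox proteins join had a median of 82.5 ± 1.01 TPM over 8 genes, led by the helicase Ddx5 at 344 and 335 and Matr3, a nuclear matrix protein, at 222 and 207. Of 4 Ptbp partners, Hnrnpk stood at 332 and 327 and Hnrnpl at 228 and 233, while the corepressors Raver2 and Raver1 stood at 24.9 and 21.4 and at 16.5 and 15.4. Among 18 other cell-type-restricted regulators 15 were at 1 TPM or more in both libraries, led by Celf2 at 233 and 207, Celf4 at 176 and 169, and the glial regulator Qki (Qk in the tables) at 165 and 177. The epithelial regulators Esrp1 and Esrp2 were below 0.1 TPM in both. All 13 SR proteins and relatives were detected, with a median of 58.9 ± 4.19, close to the 61.9 ± 3.32 of the 10 regulators.

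The regulators were also compared between the libraries. The ratio of replicate 2 to replicate 1 was computed on expected counts scaled by TMM, a method that assumes most genes do not differ, with an exact two-sided conditional binomial test adjusted by Benjamini-Hochberg over 20544 genes. This compares the 2 libraries, with counting error alone, and not conditions. Under a call rule of adjusted p under 0.05 and a log2 ratio of 1 or more in size, 2.56% of genes were called and none of the 10 regulators. At a log2 ratio of 0.58 it was 5.34% and again 0 regulators, and by adjusted p alone 26.9% and 3 regulators. Of 15465 nuclear protein-coding genes tested, 183 were called at a log2 ratio of 1, 452 at 0.58 and 4637 by adjusted p alone. For 10 genes the counts lie near these shares, so they do not set the regulators apart. The median log2 ratio of the 10 genes was −0.015, against −0.0047 over all genes tested and 0.03 over protein-coding ones.

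Rbfox1 was higher in replicate 2, at 5517 and 6339 expected counts, a log2 ratio of 0.17 ± 0.03 (counting SE) with an adjusted p of 1.43e-09 by the exact test. Nova1 was lower, at 1375 and 1187, a log2 ratio of −0.24 ± 0.06 with an adjusted p of 2.43e-04 by the exact test. Khdrbs2 was lower, at 400 and 306, a log2 ratio of −0.41 ± 0.11 with an adjusted p of 0.00119 by the exact test. The other 7 had log2 ratios between −0.11 for Ptbp1 and 0.05 for Khdrbs3, with adjusted p from 0.157 to 0.971 by the exact test. Scaled to the ERCC spike-ins the median over all genes fell by 0.29, all 10 regulators were lower in replicate 2 and Rbfox1 reversed to −0.12, so the direction of Rbfox1 holds relative to the other genes and not per spike-in.

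The related lists also held no gene past either fold. On adjusted p alone under TMM scaling, 2 of 5 close relatives passed, both lower in replicate 2, against 26.9% of all genes. Of 8 Rbfox partners 2 were higher and 2 lower, and of 4 Ptbp partners 1, Hnrnpk, was higher. Of 16 other cell-type-restricted regulators tested 4 were higher and 3 lower, and of 13 SR proteins and relatives 3 were lower. Of the 5 known target genes 4 were higher.

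TPM itself was lower in replicate 2 for 9 of the 10 regulators, with a median log2 ratio of −0.16 over the 10. The median was −0.11 over the 20495 tested genes with a TPM above 0, and −0.076 over the 15454 protein-coding genes among them. Annotated entries that overlap a regulator on its own strand were lower too. There were 18 of these above 0, mostly unclassified and sense-intronic transcripts, and their place relative to introns was not checked. Of the 18, 17 were lower in replicate 2 by TPM, with a median log2 ratio of −0.61 (pseudocount of 0.1). The same held over the genome, where 88.7% of 194 sense-intronic genes and 86.2% of 1676 unclassified transcripts were lower in replicate 2 by scaled counts, against 44.2% of protein-coding genes. The part of intronic RNA in the retained-intron shares was not tested.

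Cell type markers also moved between the pools, most of all those of myelinating oligodendrocytes, while the regulators ranged from −0.41 for Khdrbs2 to 0.17 for Rbfox1. Of 6 hippocampal neuron markers 5 were higher in replicate 2 and 1 lower, with a median log2 ratio of 0.01, led by Slc17a7 at 0.47. Of 5 pan-neuronal markers 2 were higher and 3 lower, with a median of −0.0085. All 6 markers of myelinating oligodendrocytes were called higher in replicate 2, with a median log2 ratio of 1.72, whereas all 4 astrocyte markers had a median of 0.19 and none met the call rule (3 of them passed on adjusted p alone). All 3 interneuron markers were higher in replicate 2, with a median of 0.26, and both markers of cycling cells were lower, with a median of −0.49, and none of these met the call rule. Of 4 markers of neighbouring thalamus and cortex, 3 were lower in replicate 2, led by Slc17a6 at 25.2 and 14.0 TPM with a log2 ratio of −0.82. The host genes of miR-124, a neuronal microRNA known to repress Ptbp1, were lower in replicate 2, with Mir124a-1hg at 112 and 74.8 TPM and Mir124-2hg at 15.9 and 12.1. Their log2 ratios were −0.53 and −0.44, with adjusted p of 8.51e-59 and 7.00e-07 by the exact test, and neither reached the fold of the call rule. Ptbp1 itself had a log2 ratio of −0.11 ± 0.07 with an adjusted p of 0.208 by the exact test. The level of a host gene is not that of the mature microRNA, and the part of these shifts in the values of Ptbp1, Nova1 or Khdrbs2 was not tested.

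**Figure D4:**
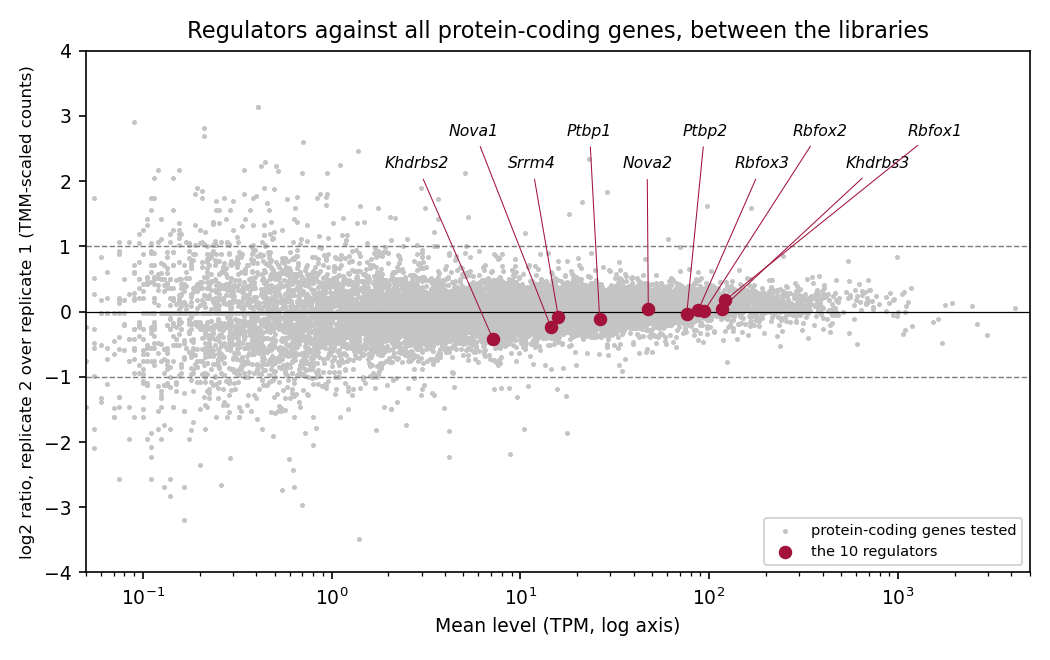
Log2 ratio of replicate 2 to replicate 1 (TMM-scaled expected counts) against mean level in TPM (log axis), for protein-coding genes in grey and the 10 regulators in red, with dashed lines at a log2 ratio of 1 in size and 41 genes outside the plotted range. The regulators lie between −0.41 for Khdrbs2 and 0.17 for Rbfox1, all within the dashed lines.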

How the data were processed

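Per the labels the build was mm10, and the deposited file listings name annotation M21, to which all 55536 gene identifiers matched. Strand handling, like the programs and versions, is unknown (not given in the sources used here). The deposited gene and transcript tables estimated from alignments hold expected counts, TPM and FPKM, per the file headers. A deposited transcript table estimated from the reads, of kallisto layout, holds estimated counts and TPM, per the file headers. TPM sums to the same total in each library, with the spike-ins counted, and is relative to the rest of the library.

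Transcript shares and exon inclusion were computed from TPM, with exons and sequences from the GENCODE M21 annotation and transcripts. Expected counts were rounded and scaled by TMM (edgeR 4.0.16). Genes with 10 or more counts over both libraries were compared by an exact conditional binomial test adjusted by Benjamini-Hochberg. With 1 library a side no model of replicate spread could be fitted. The script for this test was first tested on simulated counts. The build is a C57BL/6J reference. How reads of the CAST allele were handled is not given, and their effect on the values was not tested. The tables' 26248 numbered entries, which name no gene, were left out and held 3 and 4 expected counts.

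The members and lists were chosen with earlier results of these data known. Named were all members, up to 4 of the highest genes of a list and any gene called, and some known targets are not reported here. Alternatives were the read-based table, FPKM, TPM over protein-coding genes, other pseudocounts and scalings (DESeq2 1.42.0 size factors, totals, ERCC), no count filter, expected counts as weights, and each library alone.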

Additional observations from a re-analysis of the deposited data

How the results depend on the processing

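No paired analysis was possible because the 2 libraries form 1 group. The median level of the 10 regulators, 61.9 TPM, was 105 in the read-based table, 43.2 as FPKM and 138 as TPM over nuclear protein-coding genes, and 59.6 to 64.3 with 1 library alone, while all 10 stayed above 5 TPM. Of 7 ratios, Srrm4 to its relative Srrm3 among them, 5 kept the first gene higher in both libraries under each alternative and with 1 library alone. The median coding share over the members, 89.5%, was 80.99% in the read-based table, 98.5% with counts as weights, and 88.4% to 90.6% with 1 library alone. Of 15 member exons 9 were included above 50%, and 9 to 10 with 1 library alone. Some of the 15 are alternatives to each other, such as the 40-base and 43-base exons of Rbfox1, so their values are tied and the count is only a description. All 3 target exons were included above 50%, also with 1 library alone. Scaling by ERCC raised the genes called from 526 to 1206 at a log2 ratio of 1 and from 1098 to 2827 at 0.58, where it called 1 member, Khdrbs2, and it turned Rbfox1 to −0.12. By adjusted p alone 3 members passed under TMM, 4 under DESeq2 size factors, 7 under total counts and 10 under ERCC. The DESeq2 factors were 1 for both libraries, so that setting is the counts unscaled. Under TMM 5 members were lower in replicate 2, under total counts 9 and under ERCC 10, so signs of ratios near 0 turned as well as that of Rbfox1. Khdrbs2, with 400 and 306 expected counts, is the least precise member, and exon values rest on annotated transcripts, many of them incomplete.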
